A study of Mus musculus with 2 samples.

Results

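FGF signalling in the organ of Corti is described here through 10 genes of the pathway, out of 21938 protein-coding genes. They are the ligands *Fgf3*, *Fgf8*, *Fgf10* and *Fgf20*, the receptors *Fgfr1*, *Fgfr2* and *Fgfr3*, and the intracellular inhibitors *Spry1*, *Spry2* and *Spry4*. A peak was counted for a gene when its centre lay within 3 kb of any transcription start site (TSS) of that gene in GENCODE vM21 (GRCm38), or in the gene body plus 10 kb upstream. The measurement was ATAC-seq, in which the Tn5 transposase cuts open chromatin and accessible sites appear as peaks of reads. Organs of Corti were taken at P2 from WT mice and from *Bmi1*-/- littermates, which carry the germline null allele *Bmi1* tm1Brn on a C57BL/6J background reached by backcrossing. For each genotype the tissue of 10 mice (20 cochleae) was pooled into 1 library, so no spread between animals can be given and no test between genotypes was made. All cells of the dissected tissue were measured together, so a change in the number of cells of a type and a change of chromatin within cells cannot be told apart.

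The names of the peaks contradict the labels: 100% of names labelled WT begin with the knockout's prefix, and 100% of names labelled *Bmi1*-/- with the wild type's. The groups below are those of GEO's labels, and each direction between the lists rests on these labels. Whether the names or the labels are wrong was not tested. The list labelled WT held 77596 peaks on chromosomes 1 to 19, X and Y, and the list labelled *Bmi1*-/- held 100431. Reads at each summit and their local background were derived from 2 deposited values, fold enrichment and −log10 p. The commonest background, called the usual background below, was 6.32 reads (labelled WT) and 8.04 reads (labelled *Bmi1*-/-). Peaks are placed by their percentile of −log10 p within their own list, since fold enrichments of both libraries are not on a common scale. Intervals are 95% intervals (exact Poisson for reads, exact binomial for shares, exact conditional for ratios) and cover counting error only.

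Genes that mark the sensory epithelium were checked for a promoter peak, that is, a peak centred within 3 kb of a TSS. Of 10 hair cell genes, 9 had one labelled WT and 8 one labelled *Bmi1*-/-. Of 10 supporting cell genes, 8 had one in each list, among them *Sox2* at percentiles 94.8 and 97.1. Of genes of other cells, 2 and 3 of 5 neuronal, 2 and 3 of 5 glial, 3 and 3 of 5 mesenchymal and 4 and 3 of 5 endothelial genes had one. Since 59.1% and 68.2% of all protein-coding genes had one, these counts do not tell which cells were present. *Sox10*, a defining gene of glia, had none in either list. Of 5 genes of blood cells and macrophages, 3 had a promoter peak in the list labelled WT (*Csf1r*, *Cx3cr1* and *Spi1*) and 0 in the list labelled *Bmi1*-/-. The 3 peaks had only 19, 17 and 22 reads at their summits, at percentiles 70.8, 40.1 and 32.9. Missing partners in the other list thus say little at this depth. The part of blood cells and macrophages in the values below was not tested.

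FGF ligands bind receptor tyrosine kinases, which signal through adaptors, the MAP kinase cascade and ETS transcription factors. Sprouty proteins are switched on by this signal and dampen it. In the inner ear, FGFs act first in the induction of the otic placode and later in the growth of the prosensory epithelium and in the choice between pillar cells and their neighbours.

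The count of peaks depended on 1 transcript. GENCODE holds 27 transcripts of *Fgfr2*, and 1 of them runs from 130162451 to 133123350 on chromosome 7. It starts 2 bp from a TSS of *Ctbp2* and makes *Fgfr2* the gene of rank 2 by length among protein-coding genes, with a span of 2961 kb. The other 26 transcripts, with 13 TSSs, lie between 130162451 and 130266263, a span of 104 kb. The added stretch holds 30 other protein-coding genes, *Ate1*, *Plekha1*, *Ikzf5* and *Zranb1* among them. With all transcripts, the 10 genes had 190 peaks in the list labelled WT, of which 164 were at *Fgfr2*, and 243 in the list labelled *Bmi1*-/-, of which 210 were at *Fgfr2*. Of these peaks, 26.3% (interval 20.2% to 33.2%) and 18.9% (14.2% to 24.4%) overlapped a peak of the other list by at least 1 bp. Over the regions of all protein-coding genes but *Fgfr2* these shares were 28.9% and 21.9%. The ratio of the 2 counts, labelled *Bmi1*-/- over labelled WT, was 1.28 (1.05 to 1.55). The whole lists differ in length in the same direction, with 100431 and 77596 peaks. The ratio is therefore not read as a result about the FGF genes. Without the long transcript, a comparison chosen after the data were seen, 33 peaks labelled WT and 42 peaks labelled *Bmi1*-/- were left. Their ratio was 1.27 (0.788 to 2.07). The usual backgrounds had a ratio of 1.27, and the part of sequencing depth in these counts was not tested. Without the long transcript, 16 of 33 peaks (48.5%, 30.8% to 66.5%) and 14 of 42 peaks (33.3%, 19.6% to 49.5%) overlapped the other list. These shares fell to 12.1% and 9.52% with 50% reciprocal overlap, and equally with summits within 100 bp. The gene-wide shares under these stricter rules were not computed. Promoter peaks made up 21 of the 33 and 26 of the 42 peaks, against 20609 of 77596 and 25830 of 100431 in the whole lists. No overlapping share was computed for promoter peaks of all protein-coding genes. The shares of 48.5% and 33.3% are therefore not read as a result about the FGF genes. The account of each gene below leaves the long transcript out.

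The strongest peaks that the long transcript brings in lie at promoters of other genes. In the list labelled WT the peak from 132930919 to 132931398 on chromosome 7 had a −log10 q (the p-value adjusted within the library) of 6.65 and was centred 17 bp from a TSS of *Zranb1*. In the list labelled *Bmi1*-/-, 6 such peaks had a −log10 q of at least 5. The highest value, 11.05, belonged to the peak from 131409627 to 131410827, centred 151 bp from a TSS of *Ikzf5*. It had 41 reads at its summit (29.4 to 55.6), against 18 in the overlapping peak labelled WT, a ratio of 1.79 (1.01 to 3.31) over the usual backgrounds. The others were at *Zranb1* (9.89), *2310057M21Rik* (7.12), *Pstk* (5.49) and *Ate1* (5.19), each within 215 bp of a TSS, and 2475 bp from a TSS of *Chst15* (6.39). None of these 7 peaks is within 250 kb of any start of the other *Fgfr2* transcripts.

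All 10 genes had a promoter peak in both lists, against 59.1% (labelled WT) and 68.2% (labelled *Bmi1*-/-) of protein-coding genes. None of the 10 had a promoter peak in 1 list only, where 15.2% of protein-coding genes had one in the list labelled *Bmi1*-/- only and 6.1% in the list labelled WT only. With RefSeq starts this was so for 2 of the 10, *Fgf3* (labelled WT only) and *Fgfr3* (labelled *Bmi1*-/- only). The members have up to 18 TSSs each, and the 3 kb window counts from any of them. With a window of 1 kb to each side, 6 genes labelled WT and 9 labelled *Bmi1*-/- had a promoter peak, against 49% and 60.4% of protein-coding genes. When only peaks with a −log10 q from 3 upward were kept, 0 and 3 genes had one, against 14.1% and 34.5% of protein-coding genes. The median percentile of the strongest promoter peak of the 10 genes was 74.4 labelled WT and 73.5 labelled *Bmi1*-/-, against gene-wide medians of 76.8 and 87.3. With the long transcript kept, the medians of the 10 genes were 75.8 and 79.5, in the reverse order. Then 5 and 4 genes lay above the gene-wide medians. Without that transcript, 4 of the 10 genes lay above the median of protein-coding genes in the list labelled WT (*Fgf20*, *Fgfr3*, *Spry1* and *Spry2*) and 3 in the list labelled *Bmi1*-/- (*Fgf20*, *Fgfr1* and *Spry1*). For 7 of the 10 genes the strongest promoter peak had the higher rank in the list labelled *Bmi1*-/-, near the gene-wide share of 68.6%. With the long transcript kept it was 6 of 10, since the promoter peaks of *Ctbp2*, at percentiles 97.1 and 90.1, then stand for *Fgfr2*.

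**Figure D1:**
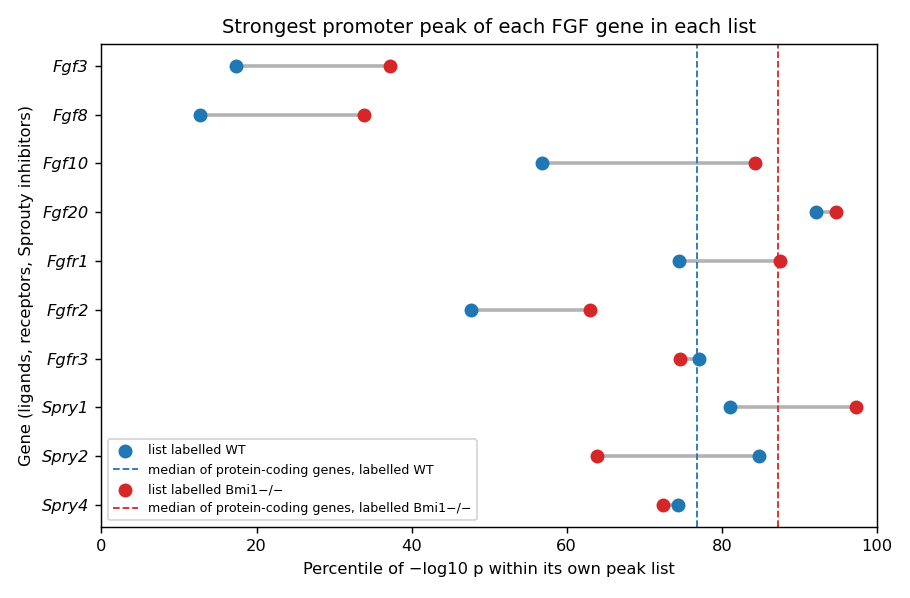
Each row is 1 gene, and the points give the percentile (0 to 100) of −log10 p of its strongest promoter peak, blue for the list labelled WT and red for *Bmi1*-/-, with the long *Fgfr2* transcript left out. Dashed lines are the gene-wide medians, 76.8 and 87.3; *Fgf3* and *Fgf8* lie far below them in both lists, and *Fgf20* above them.

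Among the ligands, *Fgf3* and *Fgf8* had the weakest promoter peaks. *Fgf3* (chromosome 7, 144838083 to 144844436, + strand), an inducer of the otic placode together with *Fgf10*, had 1 peak labelled WT, from 144835796 to 144836188. It lay 2091 bp upstream of the TSS with 18 reads at its summit (10.7 to 28.4), at percentile 17.4. In the list labelled *Bmi1*-/- the promoter peak was from 144835246 to 144835638, 2641 bp upstream, with 23 reads (14.6 to 34.5) at percentile 37.2. These peaks do not overlap, and neither touches the gene body. A second *Fgf3* peak labelled *Bmi1*-/- was in an intron, from 144842259 to 144842573, at percentile 38.1.

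*Fgf8* (chromosome 19, 45736798 to 45742915, − strand) is made by inner hair cells and acts on the neighbouring pillar cells. Its promoter peak labelled WT, from 45741541 to 45741817, had its summit in a coding exon, with 18 reads against a local background of 8.12, at percentile 12.7. In the list labelled *Bmi1*-/- the promoter peak from 45742190 to 45742461 had 25 reads against a background of 11.8, at percentile 33.8, also with its summit in a coding exon. A peak labelled WT from 45746038 to 45746277 (percentile 35.6) and a wide peak labelled *Bmi1*-/- from 45748250 to 45749428 (percentile 73.6) lay upstream. The wide peak was centred 710 bp from a TSS of the neighbouring gene *Npm3*. None of the 4 peaks of *Fgf8* and none of the 3 peaks of *Fgf3* overlapped a peak of the other list. This is the usual state in gene regions, where 28.9% (labelled WT) and 21.9% (labelled *Bmi1*-/-) of peaks overlapped.

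*Fgf10* (chromosome 13, 118669791 to 118792115, + strand), a ligand of the IIIb form of *Fgfr2* in inner ear morphogenesis, had its promoter peaks downstream of an internal TSS at 118714699. This is the start of the RefSeq transcript. The peak labelled WT from 118715658 to 118715962 lay in the first intron after that start and had 18 reads at the usual background, at percentile 56.8. The peak labelled *Bmi1*-/- from 118714970 to 118715989 covered it whole, had its summit in a coding exon with 24 reads at the usual background, and was at percentile 84.3. Relative to the usual backgrounds these are 2.85 and 2.99 times, a ratio of 1.05 (0.545 to 2.05). The rank thus differed by 27.5 percentile points, while the reads over background were nearly equal. Each list had 1 further peak in an intron, from 118705446 to 118705649 labelled WT (percentile 56.8) and from 118788318 to 118788567 labelled *Bmi1*-/- (percentile 44.0), without a partner.

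*Fgf20* (chromosome 8, 40279166 to 40308331, − strand), which is needed in the prosensory epithelium for outer hair cells and their supporting cells, had all of its peaks in both lists. With GENCODE starts it was the ligand with the strongest peaks. This depends on the annotation, since with RefSeq *Fgf10* ranked higher, at percentiles 56.8 (labelled WT) and 84.3 (labelled *Bmi1*-/-), against 40.1 and 69.3 for *Fgf20*. At the upstream TSS, 40308331, the peak labelled WT from 40308120 to 40308644 had 22 reads (13.8 to 33.3), a −log10 q of 2.86 and percentile 92.1. The peak labelled *Bmi1*-/- from 40307602 to 40308729 had 28 reads (18.6 to 40.5), a −log10 q of 4.49 and percentile 94.7. Both summits were 3.48 times the usual background, a ratio of 1 (0.552 to 1.83). This upstream start is also beside *Micu3*, a gene of the opposite strand, whose nearest RefSeq TSS at 40308023 was 359 bp and 143 bp from the peak centres. RefSeq places the start of *Fgf20* at 40286953. There the peaks from 40286121 to 40286623 labelled WT and from 40286133 to 40286952 labelled *Bmi1*-/- had 17 and 22 reads, percentiles 40.1 and 69.3, and a ratio of 1.02 (0.516 to 2.04). The peaks at the RefSeq start of *Fgf20* ranked lower in both lists than those beside *Micu3*, but the intervals of their reads overlap (9.9 to 27.2 at the RefSeq start labelled WT, 13.8 to 33.3 labelled *Bmi1*-/-).

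**Figure D2:**
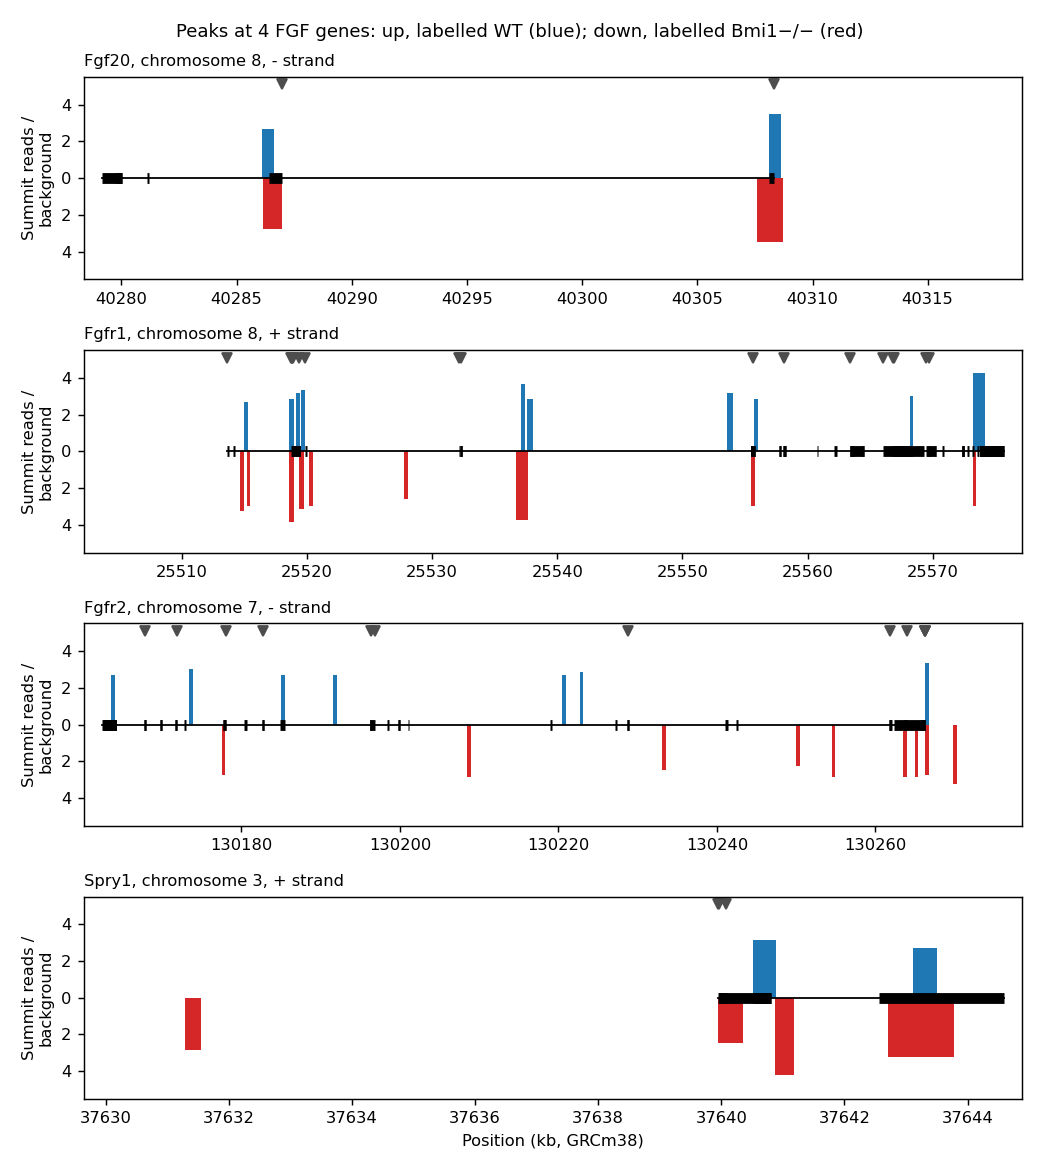
Peaks at *Fgf20*, *Fgfr1*, *Fgfr2* and *Spry1* by position (kb, GRCm38), where bar height is the number of reads at the summit divided by the usual background of the library, upward for the list labelled WT and downward for the list labelled *Bmi1*-/-; black bars are exons, triangles are TSSs, and the long *Fgfr2* transcript is left out. The *Fgf20* peaks pair at both starts; most peaks of *Fgfr2* face no peak of the other list, as is usual in gene regions (28.9% and 21.9% of peaks there overlap).

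*Fgfr1* (chromosome 8, 25513654 to 25575718, + strand), the receptor needed for the growth of sensory progenitors, had 10 peaks labelled WT and 9 labelled *Bmi1*-/-, of which 7 and 5 overlapped the other list. At the RefSeq start, 25518759, the peaks from 25518566 to 25518966 labelled WT and from 25518565 to 25518959 labelled *Bmi1*-/- share 394 bp. They had 18 reads (10.7 to 28.4) and 31 reads (21.1 to 44.0), a −log10 q of 0.69 and 3.10, and percentiles 7.12 and 87.5. The read numbers over the usual background give a ratio of 1.35 (0.734 to 2.57). The interval includes 1, so a difference was not detectable at this depth. The strongest *Fgfr1* promoter peak labelled WT was elsewhere, from 25553592 to 25554010 in an intron, 1816 bp before an internal TSS, with 20 reads at percentile 74.5.

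Outside promoters, *Fgfr1* had a pair of intronic peaks from 25537132 to 25537406 labelled WT (23 reads, percentile 90.6) and from 25536678 to 25537688 labelled *Bmi1*-/- (30 reads, percentile 86.8). Their summits were 5 bp apart, the closest of all shared pairs at the 10 genes, with a ratio of 1.03 (0.576 to 1.85). The rank was also higher in the list labelled WT near the 3′ end. The peak labelled WT from 25573187 to 25574136, with its summit in a coding exon, had 27 reads (17.8 to 39.3), a −log10 q of 3.60 and percentile 95.8, the strongest of the list labelled WT at these genes. The overlapping peak labelled *Bmi1*-/- from 25573196 to 25573467 had 24 reads (15.4 to 35.7) over a local background of 12.2, at percentile 10.7, and the ratio was 0.699 (0.386 to 1.26). A further pair downstream of the start, from 25519535 to 25519837 labelled WT (percentile 61.9) and from 25519380 to 25519805 labelled *Bmi1*-/- (percentile 38.7), had a ratio of 0.936 (0.503 to 1.76). The pairs of *Fgfr1* thus ranked in both directions, also near the start, and no ratio had an interval that left out 1.

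*Fgfr2* (chromosome 7, 130162451 to 130266263 without the long transcript, − strand), whose IIIb form shapes the inner ear, had 7 peaks labelled WT and 9 labelled *Bmi1*-/-, and 1 pair overlapped. That pair was just upstream of the start, from 130266357 to 130266612 labelled WT (21 reads, percentile 47.0) and from 130266355 to 130266570 labelled *Bmi1*-/- (22 reads, percentile 21.4), with a ratio of 0.824 (0.432 to 1.57). RefSeq starts *Fgfr2* further upstream, at 130266808. The strongest promoter peaks by the 3 kb rule were at internal starts. They were from 130173469 to 130173863 labelled WT (19 reads, percentile 47.7) and from 130177548 to 130177939 labelled *Bmi1*-/- (22 reads, percentile 63.0). The other peaks of *Fgfr2* had percentiles from 2.23 to 72.1 and no partner in the other list. With these starts *Fgfr2* had the lowest promoter ranks of the 3 receptors in both lists. This depends on the annotation, since with RefSeq *Fgfr3* had no promoter peak labelled WT and was at 35 labelled *Bmi1*-/-, against 47 and 35.5 for *Fgfr2*.

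*Fgfr3* (chromosome 5, 33721674 to 33737068, + strand), the receptor through which *Fgf8* sets the fate of pillar cells, had 2 peaks labelled WT and 3 labelled *Bmi1*-/-. At the gene start, peaks were found in the list labelled *Bmi1*-/- only. They were from 33721721 to 33721920 (24 reads, percentile 20.8) and from 33722149 to 33722404 (25 reads, percentile 35.0). Both had a −log10 q under 1.3, so a missing partner labelled WT says little at this depth. The shared pair lay at an internal TSS at 33729738, from 33729472 to 33729689 labelled WT (26 reads, percentile 77.1) and from 33729576 to 33729885 labelled *Bmi1*-/- (32 reads, percentile 74.6), with a ratio of 0.967 (0.559 to 1.69). This pair is 5809 bp and 5959 bp from the nearest RefSeq TSS. The second peak labelled WT, from 33733997 to 33734342, had its summit in a coding exon and was at percentile 64.2.

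*Spry1* (chromosome 3, 37639947 to 37644598, + strand), a feedback inhibitor of receptor tyrosine kinases, had the strongest promoter peak of the 10 genes in the list labelled *Bmi1*-/-. From 37640875 to 37641174, in the intron before the coding exon, it had 34 reads (23.5 to 47.5), a −log10 q of 6.34 and percentile 97.3, and it was the only peak of the 10 genes with a −log10 q of at least 5 once the long *Fgfr2* transcript was left out. The strongest promoter peak labelled WT, from 37640519 to 37640881, had 20 reads (12.2 to 30.9) and percentile 81.0. These peaks touch by 7 bp and their summits are 275 bp apart, so the ratio of 1.34 (0.747 to 2.45) compares neighbouring positions. A further pair lay at the coding exon, from 37643122 to 37643501 labelled WT (17 reads, percentile 40.1) and from 37642715 to 37643778 labelled *Bmi1*-/- (26 reads, percentile 75), with a ratio of 1.20 (0.628 to 2.36). The list labelled *Bmi1*-/- also had a peak 8527 bp upstream, from 37631290 to 37631550, at percentile 78.0.

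*Spry2* (chromosome 14, 105891947 to 105896819, − strand), which limits the number of pillar cells, went the other way by rank. Its single peak labelled WT, from 105894927 to 105895488 in the intron, had 24 reads (15.4 to 35.7), a −log10 q of 2.27 and percentile 84.8. The list labelled *Bmi1*-/- had 5 peaks, and the strongest, from 105897559 to 105897997, lay 959 bp upstream of the TSS with 30 reads (20.2 to 42.8) at percentile 63.9. None of the 6 peaks overlapped a peak of the other list, where 28.9% (labelled WT) and 21.9% (labelled *Bmi1*-/-) of peaks in gene regions did. All 5 peaks labelled *Bmi1*-/- stood on a high local background, 11.7 to 13.2 reads, so that 24 to 30 reads gave a fold enrichment of 1.79 to 2.19. Over the usual background of each library the strongest promoter summits were 3.8 times (labelled WT) and 3.73 times (labelled *Bmi1*-/-). The lower percentile of *Spry2* labelled *Bmi1*-/- came with nearly equal scaled reads, over a local background above the usual one. These summits lie at different places, and the part of the local background in the ranks was not tested.

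A high local background was found at other members too. With a cut chosen after these backgrounds were seen, it was at least 1.4 times the usual background for 12 of the 42 peaks labelled *Bmi1*-/- (5 at *Spry2*, 3 at *Fgfr3*, 3 at *Fgfr1* and 1 at *Fgf8*), against 8.49% of all peaks in that list. In the list labelled WT it was so for 3 of the 33 peaks (2 at *Fgfr3* and 1 at *Fgf8*), against 7.04% of all peaks. At *Fgfr3* the background was 9.86 and 10.1 reads under the peaks labelled WT and 11.7, 11.7 and 13.6 reads under those labelled *Bmi1*-/-. At *Fgf10* and *Fgf20* it was the usual background under every peak.

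*Spry4* (chromosome 18, 38586247 to 38601415, − strand), another Sprouty gene induced by FGF signals, had 4 peaks in each list, of which 2 overlapped. Around the start, the peaks from 38600727 to 38601134 labelled WT (23 reads, percentile 74.3) and from 38601107 to 38601383 labelled *Bmi1*-/- (25 reads, percentile 50.1) had a ratio of 0.854 (0.465 to 1.58). Just upstream, the peaks from 38601826 to 38602130 labelled WT (18 reads, percentile 6.24) and from 38602059 to 38602375 labelled *Bmi1*-/- (26 reads, percentile 72.4) had a ratio of 1.14 (0.599 to 2.20). The strongest promoter peaks were thus at neighbouring places and nearly equal in rank, 74.3 and 72.4. The strongest peak of the 10 genes outside promoters in the list labelled *Bmi1*-/- lay in a coding exon of *Spry4*, from 38589916 to 38590278, with 29 reads (19.4 to 41.6), a −log10 q of 3.70 and percentile 92.3. It had no partner labelled WT.

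Over the 10 genes, 14 pairs of peaks chose each other as the strongest overlapping partner. Their ratios of summit reads, labelled *Bmi1*-/- over labelled WT and each over the usual background of its library, ran from 0.699 to 1.35 with a median of 1.02. The interval included 1 for all 14 pairs. Among the 18212 such pairs of both lists the median was 0.983, and the interval lay above 1 for 0.813% and below 1 for 0.340%. Summit reads of the overlapping FGF peaks thus did not differ detectably between these libraries, although the percentiles of *Fgfr1* pairs went from 7.12 to 87.5 at the start and from 95.8 to 10.7 at the 3′ end. In 10 of the 14 pairs the summits were 141 to 432 bp apart, so these ratios compare neighbouring positions. With all *Fgfr2* transcripts there were 46 pairs, and the interval left out 1 for 1 of them, that at *Ikzf5*. With 17 to 34 reads at a summit, an interval spans about a factor of 3 or more from its lower to its upper bound.

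**Figure D3:**
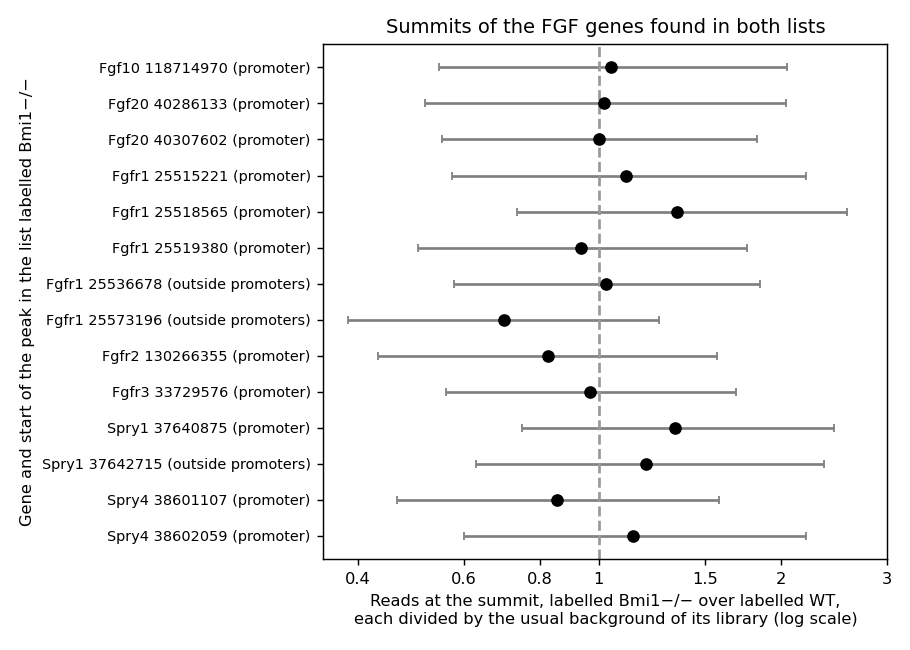
Ratio of summit reads (log scale), the list labelled *Bmi1*-/- over the list labelled WT, for the 14 shared pairs of peaks at the 10 genes, with exact conditional 95% intervals. Each value was first divided by the usual background of its library (8.04 and 6.32 reads); all intervals cross 1.

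The other genes of the FGF pathway were examined in the same way. Of 43 genes listed, 42 were found in the annotation; *Spry3* was not matched. A promoter peak was present for 31 of them labelled WT and for 37 labelled *Bmi1*-/-, 7 genes had one in the list labelled *Bmi1*-/- only, and 1, *Fgf6*, in the list labelled WT only. The strongest promoter peak had the higher rank labelled *Bmi1*-/- in 26 of the 38 genes with one. Gene-wide, a promoter peak was present in 59.1% and 68.2%, in the list labelled *Bmi1*-/- only in 15.2%, and the higher rank was labelled *Bmi1*-/- in 68.6%. Adaptors and kinases had median percentiles of 86.0 labelled WT and 95.6 labelled *Bmi1*-/-, and targets and inhibitors 81.3 and 90.5. Of the 18 other ligands, 11 and 14 had a promoter peak, with medians of 62.9 and 69.3. The 5 other receptors and co-receptors had 51.4 and 92.7, on 3 and 4 genes.

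*Etv5*, an ETS transcription factor induced by FGF signals, had the strongest promoter peak of the pathway in both lists, with 37 reads at percentile 99.5 labelled WT and 55 reads at percentile 99.8 labelled *Bmi1*-/-. The adaptors *Gab1* (98.8 labelled WT, 97.8 labelled *Bmi1*-/-) and *Grb2* (98.7 and 98.6) came next in the list labelled WT. The adaptor *Frs2* (56.8 labelled WT, 98.8 labelled *Bmi1*-/-) was also among the highest in the list labelled *Bmi1*-/-. Where a promoter peak was found in the list labelled *Bmi1*-/- only, the strongest were those of *Flrt3*, a membrane protein that binds FGF receptors, at percentile 96.2, the kinase *Mapk3* at 92.5 and *Fgf14*, an intracellular member of the FGF family, at 84.3. *Fgf6* was at percentile 12.5 of the list labelled WT. No member gene reached the percentiles of *Etv5* in either list.

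The sequence under the summits was compared with all peaks and with the promoter peaks of all protein-coding genes, the latter added after the data were seen. Within 100 bp of the summit, the 21 promoter peaks labelled WT had a median GC content of 60.7% and 8.96 CpG per 200 bp, and the 26 labelled *Bmi1*-/- had 64.7% and 11.9. All peaks had 52.7% GC in both lists, with 2.99 and 1.99 CpG, and the promoter peaks of all protein-coding genes 58.7% in both, with 6.97 CpG. The GC box (GGGCGG, on either strand as all motifs here) was found at 8 of 21 and 9 of 26 promoter peaks, against 30.1% and 30.4% of the promoter peaks of all protein-coding genes and 11.3% of all peaks in each list. It was found at 0 of the 12 and 16 member peaks outside promoters. The share among all peaks outside promoters was not computed, so these 0 counts are not read as a result about the members. The ETS core (CCGGAA), the motif of the transcription factors at the end of the FGF cascade, was found at 3 of the 33 member peaks labelled WT and 4 of the 42 labelled *Bmi1*-/-, against 3.77% and 3.95% of all peaks. At promoter peaks it was at 3 of 21 and 2 of 26, against 7.9% and 8.51% for all protein-coding genes. These counts are too small to call member promoters close to or different from promoters at large. The CCAAT box (CCAAT) was at 5 and 7 peaks, against 21% and 21.1%, and the SOX motif (ACAATG) at 5 and 3, against 8.47% and 8.36%. The TCF/LEF motif (CTTTGA) was at 4 and 2 peaks (9.75% and 9.41% of all peaks), and the RBPJ motif (GTGGGAA) at 2 and 0 (4.99% and 4.90%). The E-box (CAGCTG) was at 2 and 7 (13.1% and 13.5%), and the AP-1 motif (TGANTCA) at 0 and 2 (5.12% and 5.24%). A match says only that the letters are present.

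The stretches below are those of the peaks that the comparison turns on, read from GRCm38 in the direction of the gene, with matches to the 8 motifs in capitals. The stretches leave out untranslated exon sequence. For *Fgf20* the stretch is chr8:40308332-40308532 on the − strand, directly upstream of the start beside *Micu3*, where the peaks of both lists meet. It is 70.6% GC with 17 CpG and holds a GC box and an ETS core. For *Micu3*, on the opposite strand, the same stretch lies downstream of the RefSeq TSS at 40308023. Whether the stretch and its 2 motifs lie in a coding exon of *Micu3* was not checked.
Fgf20 upstream start: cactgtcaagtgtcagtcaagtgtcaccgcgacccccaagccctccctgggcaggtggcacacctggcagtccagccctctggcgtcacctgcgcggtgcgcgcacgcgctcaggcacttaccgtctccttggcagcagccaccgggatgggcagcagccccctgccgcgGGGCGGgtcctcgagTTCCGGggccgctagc
For *Fgf10* the stretch is chr13:118715390-118715590 on the + strand, around the summit labelled *Bmi1*-/- inside the first coding exon, with 55.7% GC and 1 SOX motif.
Fgf10 first coding exon: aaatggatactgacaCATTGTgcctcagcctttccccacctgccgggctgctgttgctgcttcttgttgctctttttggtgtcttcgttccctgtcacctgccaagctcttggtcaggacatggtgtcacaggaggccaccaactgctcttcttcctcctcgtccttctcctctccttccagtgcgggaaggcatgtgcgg

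*Fgfr1* is shown at 2 places, its start, which ranked differently in the lists, and its intron, where the ranks were close. The start is chr8:25518565-25518758 on the + strand, up to the base before the RefSeq TSS, with 59.3% GC, 8 CpG and no match to the 8 motifs. The summit labelled WT of the same shared peak, at 25518884, lies past this stretch in untranslated sequence and has an ETS core and a GC box within 100 bp.
Fgfr1 start: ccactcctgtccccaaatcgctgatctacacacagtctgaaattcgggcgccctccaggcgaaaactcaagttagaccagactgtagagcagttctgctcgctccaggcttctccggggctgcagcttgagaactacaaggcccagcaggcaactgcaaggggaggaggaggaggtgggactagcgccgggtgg
The intronic stretch is chr8:25537198-25537398 on the + strand, under the summits that lie 5 bp apart, with 63.7% GC, 11 CpG and no match.
Fgfr1 intron: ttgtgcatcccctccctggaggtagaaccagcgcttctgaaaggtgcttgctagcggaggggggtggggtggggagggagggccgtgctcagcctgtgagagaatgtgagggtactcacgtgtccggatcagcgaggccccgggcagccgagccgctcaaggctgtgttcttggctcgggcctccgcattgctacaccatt

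For the Sprouty genes, the stretches are those of the strongest promoter peaks labelled *Bmi1*-/-. At *Spry1* it is chr3:37640883-37641083 on the + strand, in the intron before the coding exon, with 73.1% GC, 26 CpG and 1 GC box.
Spry1 intron before the coding exon: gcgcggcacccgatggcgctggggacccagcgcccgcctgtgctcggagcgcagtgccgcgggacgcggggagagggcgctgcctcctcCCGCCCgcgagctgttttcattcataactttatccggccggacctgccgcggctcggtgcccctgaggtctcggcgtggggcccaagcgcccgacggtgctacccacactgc
At *Spry2* it is chr14:105897793-105897993 on the − strand, upstream of the TSS, with 65.7% GC, 9 CpG, 1 GC box and 1 CCAAT box.
Spry2 upstream: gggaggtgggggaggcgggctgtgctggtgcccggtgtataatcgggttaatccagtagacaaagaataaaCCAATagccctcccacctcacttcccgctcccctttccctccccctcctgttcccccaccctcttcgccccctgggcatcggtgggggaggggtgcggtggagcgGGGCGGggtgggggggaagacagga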

How the data were processed

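Peak lists from ATAC-seq were used, 1 library per genotype. The labels name FastQC, BWA, MACS2 and HOMER as the tools of the authors, with mm10 as the build. No versions of these tools were taken from the labels. In the deposited fold enrichment, summit pileup plus 1 is divided by local background plus 1. A Poisson model underlies the deposited −log10 p, and the deposited −log10 q holds its adjustment in that library. No use was made of the deposited score, which is 10 times the −log10 p. Peaks were deposited from a −log10 p of about 2.

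Of 77826 and 100668 peaks, 230 and 237 on other sequences were left out. The lists hold no read totals, so the solved background is the only sign of depth. The solver, tested on simulated data, gave a whole pileup (within 0.05 of a step between whole numbers) for 100% of peaks in both lists. The usual background is the commonest value, rounded to 2 decimals. Genes came from GENCODE vM21 and, as an alternative, curated RefSeq. Python 3.11.15, numpy 2.4.6, pandas 2.3.3, scipy 1.17.1 and matplotlib 3.10.9 were used.

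The members, gene lists and motifs were chosen with earlier results of these data known. Named besides the members were, from the pathway list, the 3 genes with the highest percentile in each list and up to 3 with a promoter peak in that list only. Some named genes and sequences that these rules select are not reported here. Named peaks were the strongest promoter peaks, those with a −log10 q of at least 5 and the strongest outside promoters. Further member peaks and marker genes were named after their values were seen. The comparison without the long *Fgfr2* transcript, the added alternatives and the cut of 1.4 times the usual background were also chosen after seeing the data, the cut once the backgrounds at *Spry2* and *Fgfr3* were known to be high; other cuts were not tried. Alternatives were stricter thresholds, equal list lengths, other gene regions, overlaps and promoter windows, and RefSeq.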

Additional observations from a re-analysis of the deposited data

How the results depend on the processing

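No paired analysis was possible because each genotype has 1 library. Of 78 values with all transcripts, 37 stayed within 1.5 times the count or within the interval of the share, and 41 did not. Of 70 values without the long *Fgfr2* transcript (settings chosen after seeing the data), 43 did and 27 did not. Fewer peaks pass stricter thresholds by construction; the cause of other shifts was not tested. Pairs below are labelled WT and labelled *Bmi1*-/-.

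Peaks at the 10 genes, 190 and 243 with all transcripts, were 95 and 150 at a −log10 q of at least 1.3, 15 and 31 at 3, 1 and 7 at 5, 25 and 29 within 3 kb of a TSS, 33 and 41 with RefSeq, 36 and 45 by nearest TSS, 33 and 42 without the long transcript, and 26 and 33 without *Fgfr2*. Without the long transcript, 33 and 42 became 15 (WT) at 1.3, 1 and 4 at 3, 0 and 1 at 5, 84 and 90 with 50 kb to each side, and 21 and 26 within 3 kb of a TSS.

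The overlapping shares, 26.3% and 18.9%, became 40.0% (WT) at 3 and 100% (WT, 1 peak) at 5, 56.0% and 44.8% within 3 kb of a TSS, 45.5% and 31.7% with RefSeq, 44.4% and 31.1% by nearest TSS, 12.1% and 9.47% with 50% reciprocal overlap, 10.5% and 8.23% with summits within 100 bp, 48.5% and 33.3% without the long transcript, and 57.7% and 39.4% without *Fgfr2*. Without the long transcript, 48.5% and 33.3% became 0% and 0% at 3 (of 1 and 4 peaks), 0% (*Bmi1*-/-, of 1 peak) at 5, 29.8% (WT) with 50 kb, and 12.1% and 9.52% with either stricter overlap. The share labelled WT has no value there at 5, where 0 peaks are left.

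Genes with a promoter peak, 10 and 10, were 1 and 4 at 3 and 0 and 1 at 5 with all transcripts, 0 and 3 at 3 and 0 and 1 at 5 without the long one, 6 (WT) with 1 kb to each side, and 5 and 6 from 1 kb upstream to 100 bp downstream. Genes with a higher rank labelled *Bmi1*-/-, 6 and, without the long transcript, 7, were 3 at 3 and 1 at 5 in both cases (of 4 or 3 genes, and of 1), and 4 of 7 with the last window. RefSeq gave 6 of 10.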

Other observations

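The limits of these values are those of 1 library per genotype. A peak list holds only what passed the caller, so a missing partner can be a weaker summit at the same place. Summits of the 10 genes hold 17 to 34 reads, and the summit is the highest point of each peak, chosen in each library separately. The genotype labels are contradicted by the peak names. Internal TSSs of GENCODE, such as those of *Fgfr2* and *Fgfr3*, make peaks in gene bodies count as promoter peaks. Chromatin accessibility does not give the expression of the ligands, receptors or inhibitors, which was not analysed here.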
